A study of Mus musculus with 6 samples.

Results

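The genes described here encode proteins of pre-mRNA splicing and its regulation: serine and arginine rich (SR) proteins, heterogeneous nuclear ribonucleoproteins (hnRNPs), and proteins of the small nuclear ribonucleoproteins (snRNPs). They were taken from the deposited table by symbol: Srsf followed by a digit, or a name starting with Hnrnp, Snrp, Sf3a, Sf3b or U2af. This gave 55 of 24062 symbols: 11 SR, 20 hnRNP, 12 Sm and U1/U2 snRNP (Snrp), 9 SF3A/SF3B and 3 U2AF genes. The set was selected on the fold changes of splicing genes as a class, which were lower in p27OE in these same libraries, so its direction is a description and not a test.

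RNA was sequenced from mouse embryonic fibroblasts (primary connective tissue cells from C57BL/6 embryos) in 3 libraries of cells given p27 by lentivirus (p27OE) and 3 libraries labelled EV control, all at day 10. The protein p27, encoded by Cdkn1b, inhibits cyclin-dependent kinases. The labels do not say which promoter drove p27, how the EV control cells were transduced or whether replicates were separate embryos or cultures. The p-values therefore rest on the spread among 3 samples a group, whose source the labels do not give. Y-linked and Xist RNA differed widely among libraries of a group (values below), so these were not all repeats of the same RNA. EV control 2 and EV control 3 were close in Y-linked level but differed in Xist, at 5.67 and 0.680 CPM. Whether the spread between them is technical was not tested. The design text calls the cells non-senescent while the p27OE titles and the treatment protocol call them senescent. Every EV control title also bears a numbered mark referring to a dataset, and no p27OE title does. The meaning of the mark is not given. Whether controls and p27OE libraries were prepared and sequenced together is not stated and was not tested. Any such difference would coincide with the groups in all comparisons below.

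Splicing removes introns in a cycle of assembly steps. The U1 snRNP marks the start of an intron, U2AF and the U2 snRNP with its SF3A and SF3B proteins mark its end and branch point, and a ring of Sm proteins holds each of these RNAs. SR proteins bind exons and mostly favour their inclusion, while many hnRNPs compete with them, and several SR and hnRNP genes limit their own mRNA through exons that trigger its decay. In fibroblasts, as in other cell types, most of these are housekeeping genes whose mRNA is abundant in growing cells.

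Promoter stretches of 3 members are shown because these genes stand for the SR, hnRNP and snRNP groups. Each is the 100 bases before the start that RefSeq lists (GRCm38.p6, the assembly of mm10), 5′ to 3′ on the gene's strand. Gene positions elsewhere in the text are those of GENCODE, whose start is the same for Srsf1 and Hnrnpd and lies 11 bases farther upstream for Snrpe, so the last 11 bases of its stretch are within the GENCODE gene. Capitals mark matches on either strand to 6 motifs, and overlapping matches were each counted. The first was the letters TATAAA, which position the polymerase at many tissue genes. The E-box, known from MYC family proteins, was searched as CACGTG, and the core read by ETS family proteins as CCGGAA. The box known from the factor NF-Y was searched as CCAAT, the one known from the SP family as GGGCGG, and that of the E2F cell cycle factors as TTCCCGC. The stretches lie at chr11:88047273-88047372 (plus strand, Srsf1), chr5:99978939-99979038 (minus strand, Hnrnpd) and chr1:133610281-133610380 (minus strand, Snrpe).
Srsf1: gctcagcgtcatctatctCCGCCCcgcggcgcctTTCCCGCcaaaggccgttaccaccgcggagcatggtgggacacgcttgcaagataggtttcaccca
Hnrnpd: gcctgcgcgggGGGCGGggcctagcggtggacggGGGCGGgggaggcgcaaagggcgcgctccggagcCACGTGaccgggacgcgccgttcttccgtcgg
Snrpe: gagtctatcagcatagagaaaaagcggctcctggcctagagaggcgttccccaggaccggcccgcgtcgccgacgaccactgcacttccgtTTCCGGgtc

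The promoter table held 48 of the 55 members, and 7 were not matched (Hnrnpll, Hnrnpul2, Sf3b4, Sf3b5, Snrpb, Snrpd1 and U2af2). Over the whole window from 250 bases before to 50 after the first listed start of each gene, the ETS core was in 23 of 48 members (47.9%), against 27.1% of the 10416 tested genes with a window and 15.2% of all 27025 genes in the table. The NF-Y box was also in 47.9% of members, against 38.5% of tested genes and 37.9% of all genes. The SP box was in 68.8% of members, against 64.8% of tested genes and 35.9% of all. The letters TATAAA were in 12.5% of members, against 7.1% of tested genes and 14.2% of all. The E2F box was in 12.5% of members, against 8.5% of tested genes and 4.7% of all, and the E-box in 10.4% of members, against 10.2% of tested genes and 7.2% of all. These are shares of windows that hold the letters, with no test and no reading about a factor.

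The libraries held 43621464 to 48014367 counts in p27OE and 39183624 to 61219345 counts in EV control. Cdkn1b stood at 167, 232 and 337 CPM (counts scaled to the library's size) in p27OE 1, 2 and 3, against 43.9, 31.5 and 32.3 CPM in EV control 1, 2 and 3, so the targeted gene was higher in every library labelled p27OE. Y-linked transcripts (Ddx3y, Eif2s3y, Kdm5d and Uty) summed to 1.95, 57.1 and 137 CPM in p27OE and 0.125, 126 and 124 CPM in EV control. Xist RNA, made from the inactive X chromosome of female cells, stood at 330, 164 and 0.457 CPM in p27OE and 407, 5.67 and 0.680 CPM in EV control. EV control 1 stood apart from the other controls in both, while the p27OE libraries were graded, with p27OE 2 between p27OE 1 and p27OE 3. All 10 fibroblast markers were tested, and they summed to 40820 to 45510 CPM in p27OE and 37060 to 58860 CPM in EV control. Col1a1, Col1a2, Col3a1 and Fn1 made up most of these sums, and single markers were not even across libraries. Of the 10, 6 lay below 0 in log2 fold change and 4 above. Dcn, for example, stood at 92.7, 25.2 and 8.4 CPM in p27OE 1, 2 and 3 and 76.1, 11.2 and 8.3 CPM in EV control 1, 2 and 3. The 13 tested macrophage markers summed to 20.8 to 37.7 CPM in p27OE and to 104 CPM in EV control 1 and 25.1 and 19.4 CPM in EV control 2 and 3. Epithelial and endothelial markers summed to at most 40.2 CPM in any library. Neural markers summed to 93.5 to 99.4 CPM in p27OE and 82.4 to 92.3 CPM in EV control, nearly all of it from Tubb3 and Map2, with Snap25 at 0 in all 6 libraries. Of the skeletal muscle markers only Des was tested, at 38.9, 68.2 and 118.9 CPM in p27OE and 26.2, 50.5 and 54.1 CPM in EV control, and Ckm was at 0 in all libraries. The part of other cell types in the levels of the splicing genes was not tested.

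The 55 genes together took a smaller share of the RNA in p27OE cells. They made up 0.799%, 0.782% and 0.676% of all counts in p27OE 1, 2 and 3, against 0.907%, 0.957% and 0.961% in EV control 1, 2 and 3. After TMM scaling, which corrects for differences in library composition and underlies all CPM values here, their sums were 7725, 7697 and 7088 CPM in p27OE and 8886, 9690 and 9735 CPM in EV control, a difference of −0.33 on the log2 scale, or 20.5% less. Every p27OE library lay below every EV control library, and p27OE 3 was the lowest. In bulk RNA, fewer cells that express a gene and less RNA per cell cannot be told apart.

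Of the 55 members 54 were tested, and 53 of them lay below 0 in log2 fold change (median −0.29), where 48.2% of all 13990 tested genes lay below 0 and the median was 0.01. The untested member was Snrpn, an imprinted relative of the Sm protein gene Snrpb, which had 0 counts in all 6 libraries. Of the 50-base stretches of Snrpn, 21.7% also occur in transcripts of 4 other annotated genes. How such reads were counted is not given, and whether 0 counts mean that Snrpn RNA was absent was not tested. The groups did not overlap for 42 tested members. In 41 all p27OE libraries lay below all EV control libraries, which held for 16.5% of all genes tested, and in 1, Srsf12, they lay above, which held for 16.8%. The change was small for nearly all of them: 1 member, Srsf12, differed by over 2-fold.

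edgeR's quasi-likelihood test, adjusted by the Benjamini-Hochberg method over all genes, called 7 members lower and 0 higher, beside 0.843% of all genes called lower and 1.77% called higher at an adjusted p under 0.05. At an unadjusted p under 0.05, 36 of 54 members were lower and 0 higher, beside 12.9% of all genes lower and 13.1% higher (3634 in all); the counts at that threshold given below for single groups and for related genes have the same background. The 7 were Srsf1, Srsf3, Hnrnpd, Hnrnph1, Hnrnpa2b1, Snrpe and U2af1, with adjusted p between 0.0394 and 0.0495, all close to the threshold. Without EV control 1, 29 members were called lower and 1 higher, with 6.75% of all genes called lower and 6.13% higher (1827 in all). When p27OE 1, p27OE 2, p27OE 3, EV control 2 or EV control 3 was left out alone, edgeR called 0 members and 1 or 2 genes in all, while 26 to 37 members were lower at an unadjusted p under 0.05, beside 7.99% to 12.5% of all genes. DESeq2 called 30 members lower and 0 higher, beside 8.41% of all genes lower and 8.19% higher (2321 in all). The DESeq2 counts given below for single groups, related genes and proliferation markers have the same background. With total-count scaling edgeR called 0 members of 313 genes, with 35 lower at an unadjusted p under 0.05, beside 11.6% of all genes. Because the members were chosen with this contrast in view, nothing is read from these counts.

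**Figure D1:**
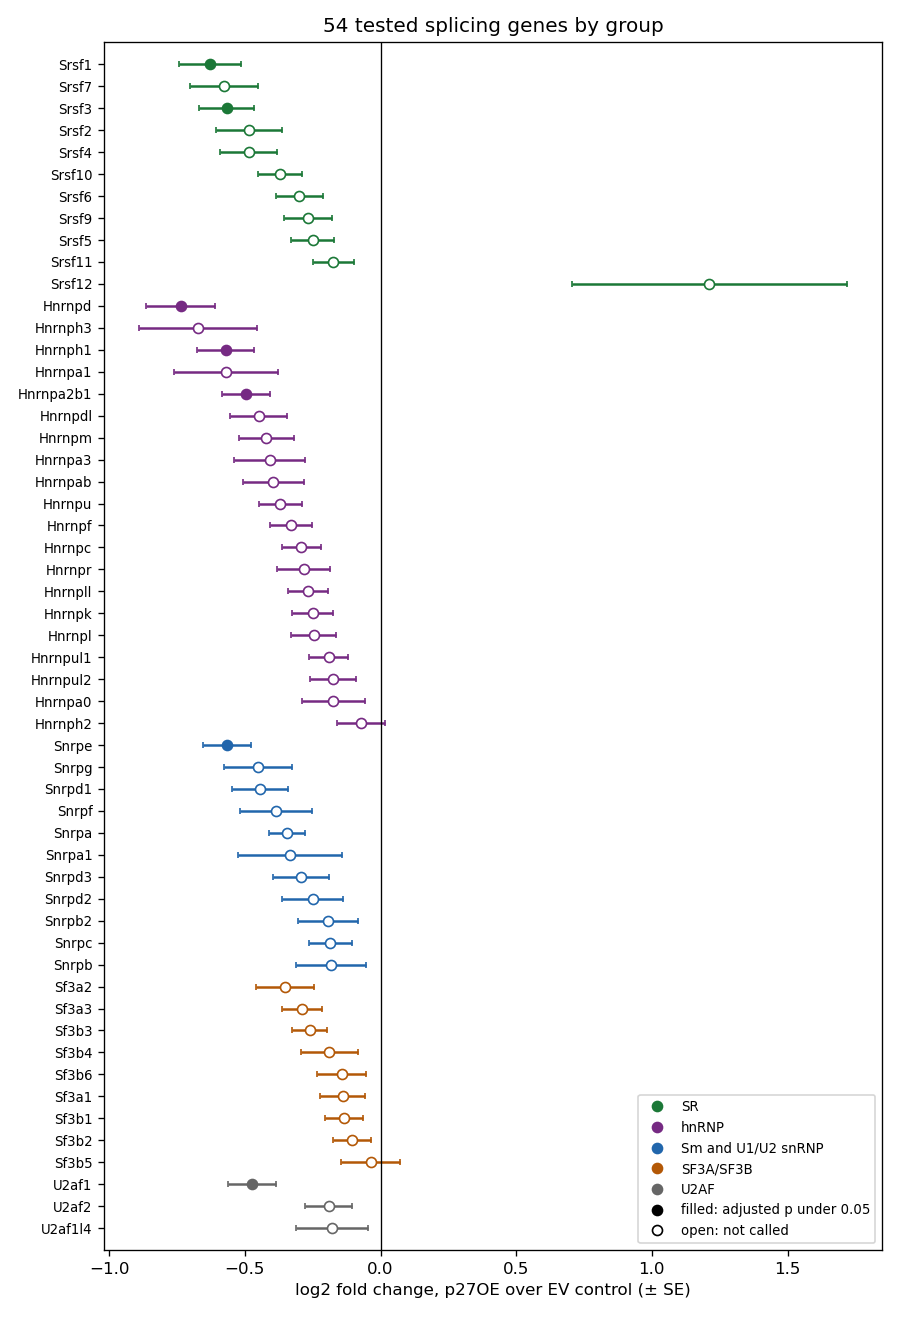
Log2 fold change of p27OE over EV control (x axis, points, with the SE as bars) for the 54 tested splicing genes (y axis), coloured by group; filled points were called by edgeR over all genes. All points but Srsf12, at 1.21, lie below 0, down to −0.74 for Hnrnpd.

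Among SR genes, 10 of 11 lay below 0 and the median was −0.37. It was the most negative of the 5 groups with all libraries, but without p27OE 1 the hnRNP median was lower, at −0.41 against −0.40 for SR. Of the SR genes 2 were called lower and 0 higher, with 9 at an unadjusted p under 0.05, all lower, and DESeq2 called 8 lower and 0 higher. Srsf1, the founding SR protein, which recruits U1 and U2 factors to exons, stood at 164, 175 and 136 CPM in p27OE 1, 2 and 3, against 225, 251 and 257 CPM in EV control 1, 2 and 3. The groups were well apart, with p27OE 3 lowest and EV control 1 the lowest of the controls. Srsf1 fell by 0.63 ± 0.12 on the log2 scale (SE), or by 35.3%. It lies on chromosome 11 at 88047373 to 88053755, on the plus strand.

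Srsf3, the smallest SR protein, which also takes part in mRNA export, had 198, 186 and 159 CPM in p27OE and 260.1, 276 and 270.1 CPM in EV control. The controls lay close together and p27OE 3 was again lowest. Srsf3 (chromosome 17, 29032628 to 29043373) fell by 0.57 ± 0.10 on the log2 scale (SE), and 31.5% of its 50-base stretches also occur in transcripts of 5 other annotated genes, so its count is less certain than that of Srsf1. Srsf7, a close relative of Srsf3, had 93.9, 99.0 and 77.2 CPM in p27OE and 118, 145 and 140.1 CPM in EV control (−0.58 ± 0.13, SE) without a call.

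Srsf2, a component of nuclear speckles, had 170.4, 173 and 137 CPM in p27OE and 199.7, 239 and 234.5 CPM in EV control, with no overlap and no call (−0.49 ± 0.12, SE). Srsf4 stood at −0.49 ± 0.11 and Srsf10, which acts as a repressor when dephosphorylated, at −0.37 ± 0.08. The other SR genes were closer to 0. Srsf6 stood at −0.30, Srsf9 at −0.27, Srsf5 at −0.25 and Srsf11 at −0.18, each below EV control in every p27OE library and none called.

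Srsf12 was the exception. It is an SR-related gene of low level here, on chromosome 4 at 33208991 to 33233340, and had 100, 70 and 70 counts in p27OE 1, 2 and 3, against 56, 28 and 20 counts in EV control 1, 2 and 3. In CPM these were 2.16, 1.435 and 1.68 in p27OE and 1.4, 0.463 and 0.439 in EV control. The groups barely missed overlapping, between p27OE 2 and EV control 1. The log2 fold change was 1.21 ± 0.51 (SE) without a call.

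**Figure D2:**
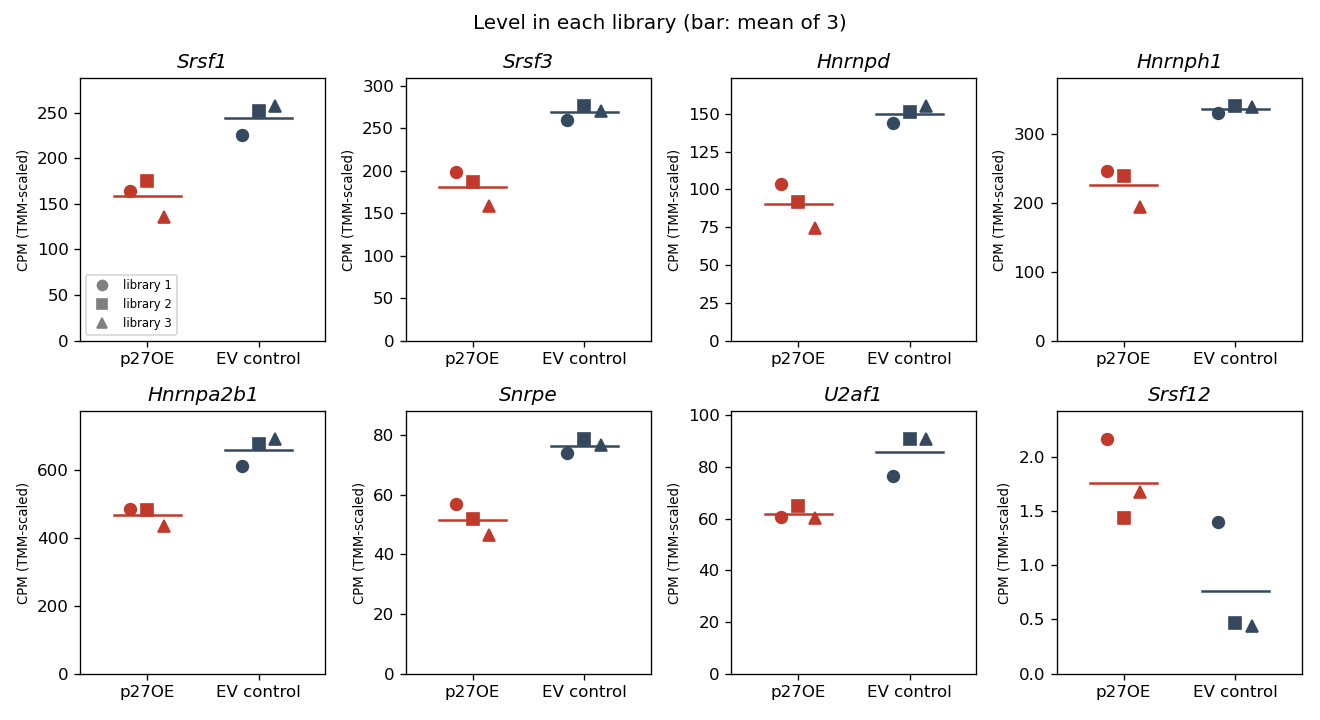
TMM-scaled CPM (y axis, starting at 0) of the 7 called members and Srsf12 in each library, p27OE left and EV control right, with a bar at the mean of 3. In the 7 called genes every p27OE point lies below every EV control point; in Srsf12 the order is the opposite and EV control 1, at 1.4, lies close to p27OE 2, at 1.435.

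All 20 hnRNP genes lay below 0, with a median of −0.35; 3 were called lower and 0 higher, with 17 at an unadjusted p under 0.05, all lower, and DESeq2 called 14 lower and 0 higher. Hnrnpd, also known as AUF1, binds AU-rich elements and governs the decay of mRNAs that carry them. It had 104, 91.6 and 74.7 CPM in p27OE 1, 2 and 3, against 144, 151.5 and 155 CPM in EV control 1, 2 and 3. The lowest control was well above the highest p27OE library. Hnrnpd (chromosome 5, 99955935 to 99978938, minus strand) fell by 0.74 ± 0.13 on the log2 scale (SE), or by 40.0%, the largest fall among the 55 genes.

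Hnrnph1, which binds runs of G, had 246, 238 and 194 CPM in p27OE and 329.7, 339 and 339 CPM in EV control. It fell by 0.57 ± 0.11 on the log2 scale (SE) and lies on chromosome 11 at 50376990 to 50386528. Its X-linked relative Hnrnph2, by contrast, had 81.2, 81.4 and 80.8 CPM in p27OE and 75.4, 88.2 and 92.2 CPM in EV control. Those groups overlapped, and its log2 fold change of −0.07 ± 0.09 (SE) was the closest to 0 among the hnRNP genes; the difference between the relatives was not tested.

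Hnrnpa2b1, which binds RNA for nuclear processing and transport, was among the most abundant members. It had 485, 483 and 435 CPM in p27OE and 612, 676 and 689 CPM in EV control, with a wide gap between the groups. Hnrnpa2b1 (chromosome 6, 51460932 to 51469894) fell by 0.50 ± 0.09 on the log2 scale (SE). Its relatives Hnrnpa3 and Hnrnpa0 stood at −0.41 and −0.17 without a call.

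Hnrnpa1, a splicing repressor known for high levels in dividing cells, had 200, 302 and 199 counts in p27OE and 255, 489 and 376 counts in EV control, that is 4.33, 6.19 and 4.78 CPM in p27OE and 6.38, 8.09 and 8.25 CPM in EV control. Of its 50-base stretches 46.7% also occur in transcripts of 19 other annotated genes. How reads with several matches were counted is not given in the sources used here, so its level is uncertain; its log2 fold change was −0.57 ± 0.19 (SE). Hnrnph3 was also low, at 4.39, 3.998 and 2.93 CPM in p27OE and 7.25, 5.36 and 5.47 CPM in EV control, though 0.0% of its stretches were shared. The log2 fold change of Hnrnph3 was −0.67 ± 0.22 (SE) without a call. Of the 55 members, 13 shared at least 20% of their stretches with another annotated gene, and 7 had under 1000 counts in every library (Hnrnpa1, Hnrnph3, Snrpf, Srsf4, Srsf12, U2af1l4 and Snrpn).

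The other hnRNP genes stood between −0.45 (Hnrnpdl, the relative of Hnrnpd) and −0.18 (Hnrnpul2), none called. Hnrnpm stood at −0.42 ± 0.10 (SE) and Hnrnpu, which also organises chromatin, at −0.37 ± 0.08. Hnrnpk, which binds runs of C, stood at −0.25 ± 0.08, with 542, 548 and 549 CPM in p27OE and 613, 669 and 669 CPM in EV control. Its p27OE libraries lay close together, unlike those of Hnrnpd.

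The highest levels per length were those of a pair of hnRNP genes. Hnrnpf had 152.9 CPM per kb of exon in p27OE and 192 in EV control, and Hnrnpab 127 in p27OE and 167 in EV control. Hnrnpk and Hnrnpa2b1 were next among the hnRNP genes, with 84.5 and 71.0 CPM per kb in p27OE and 101 and 100.1 in EV control. Hnrnpf and Hnrnpab had log2 fold changes of −0.33 ± 0.08 and −0.40 ± 0.11 (SE) without a call, and 36.8% of the stretches of Hnrnpf were shared with other genes. Among SR genes Srsf2 was highest, with 54.2 CPM per kb in p27OE and 75.9 in EV control, followed by Srsf5 with 39.7 in p27OE and 47.3 in EV control.

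All 11 tested Sm and U1/U2 snRNP genes lay below 0, with a median of −0.33; 1 was called lower and 0 higher, with 6 at an unadjusted p under 0.05, all lower, and DESeq2 called 4 lower and 0 higher. Snrpe, a protein of the Sm ring, had 56.8, 51.9 and 46.5 CPM in p27OE 1, 2 and 3, against 74.0, 78.6 and 76.9 CPM in EV control 1, 2 and 3. The controls lay within a narrow range above all p27OE libraries. Snrpe (chromosome 1, 133603871 to 133610291, minus strand) fell by 0.57 ± 0.09 on the log2 scale (SE), with the smallest p of the 55 genes (edgeR adjusted p = 0.0394). Of the other Sm ring genes, Snrpg stood at −0.45, Snrpd1 at −0.44, Snrpf at −0.39, Snrpd3 at −0.29, Snrpd2 at −0.25 and Snrpb at −0.18, none called.

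Snrpb, which had the highest level per length of this group (84.6 CPM per kb in p27OE and 96.0 in EV control), showed how EV control 1 differed from the other controls. It had 164, 168 and 169 CPM in p27OE and 154, 210.2 and 206 CPM in EV control. EV control 1 was the lowest of all 6 libraries, so the groups overlapped. The U1 protein genes Snrpa and Snrpc stood at −0.34 ± 0.07 and −0.19 ± 0.08 (SE), and the U2 protein genes Snrpa1 and Snrpb2 at −0.33 ± 0.19 and −0.19 ± 0.11. None of these was called, although Snrpa, at 66.4, 67.1 and 62.1 CPM in p27OE and 78.9, 84.0 and 85.3 CPM in EV control, did not overlap.

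All 9 SF3A/SF3B genes lay below 0, but the median was −0.14, the closest to 0 of the 5 groups; edgeR called 0 and had 3 of 9 lower at an unadjusted p under 0.05, and DESeq2 called 3 lower. Sf3b3 had 189, 188 and 182 CPM in p27OE and 219, 227 and 225 CPM in EV control (−0.26 ± 0.07, SE), with small spread in both groups. Sf3a2 and Sf3a3 stood at −0.35 ± 0.11 and −0.29 ± 0.07 (SE). Sf3b1, which contacts the branch point region of the intron, stood at −0.14 ± 0.07, and Sf3b2 at −0.11 ± 0.07. Sf3b5 stood at −0.04 ± 0.11, with 60.8, 58.9 and 53.3 CPM in p27OE and 50.7, 63.3 and 63.4 CPM in EV control, which overlapped. Sf3b4 and Sf3b2 had the highest levels per length, at 44.4 and 31.9 CPM per kb in p27OE and 50.7 and 34.3 in EV control, and 49.3% of the stretches of Sf3b4 were shared with 1 other gene.

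U2AF has a large subunit that binds the pyrimidine tract and a small one that reads the end of the intron. U2af1, the small subunit gene, had 60.7, 64.9 and 60.1 CPM in p27OE and 76.6, 90.6 and 90.6 CPM in EV control. The groups did not overlap and U2af1 (chromosome 17, 31647081 to 31658892, minus strand) fell by 0.47 ± 0.09 on the log2 scale (SE), with 51.3% of its stretches shared with 3 other genes. U2af2, the large subunit gene, had 228, 236 and 221 CPM in p27OE and 236, 270.5 and 276 CPM in EV control, which overlapped (−0.19 ± 0.09, SE). U2af1l4, a relative of U2af1, stood at −0.18 ± 0.13 and overlapped as well. Of the 3 genes 1 was called lower and 0 higher, with 1 at an unadjusted p under 0.05 and 1 called lower by DESeq2.

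**Figure D3:**
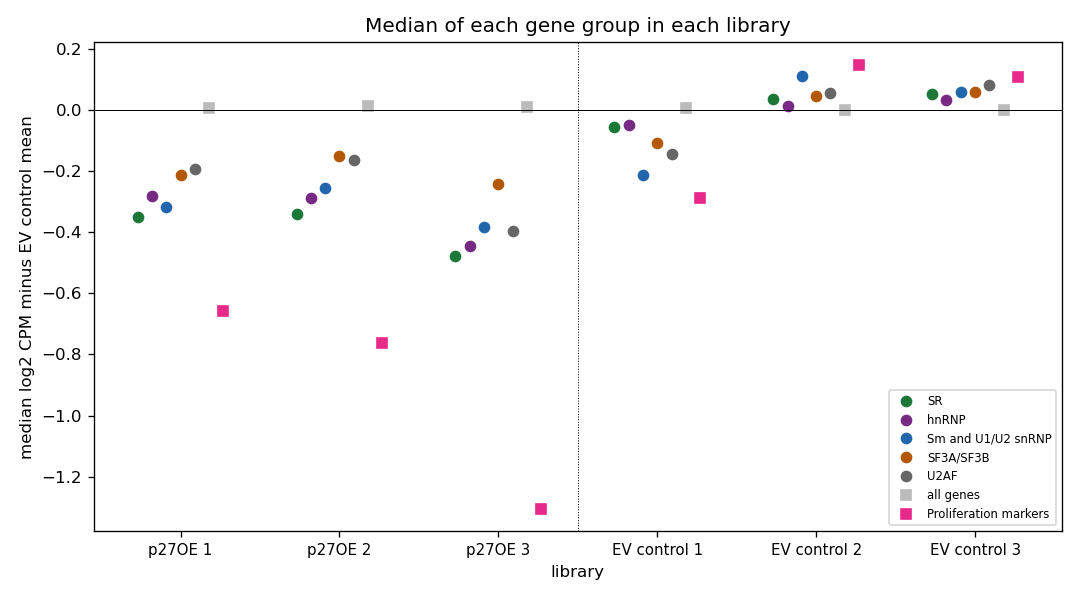
Median over each group's genes of log2 CPM minus the EV control mean (y axis) in each library (x axis, p27OE left, EV control right); squares show all tested genes and 10 proliferation markers. SR genes lie lowest of the 5 groups in each p27OE library, at −0.35, −0.34 and −0.48; EV control 1 lies below the other controls in all 5 groups.

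The libraries were not alike within the groups. The median of the splicing genes against the EV control mean was −0.28, −0.27 and −0.39 in p27OE 1, 2 and 3 and −0.09, 0.04 and 0.05 in EV control 1, 2 and 3. The median of all tested genes was 0.008, 0.012 and 0.011 in p27OE 1, 2 and 3 and 0.006, 0.002 and 0 in EV control 1, 2 and 3. In 42 of 54 members p27OE 3 was the lowest p27OE library, and in 44 of 54 EV control 1 was the lowest control. Neither share was computed over all genes, so neither is read as particular to the splicing genes. Proliferation markers were also lowest in p27OE 3 and, among the controls, in EV control 1: the median of 10 such genes was −0.66, −0.76 and −1.31 in p27OE and −0.29, 0.15 and 0.11 in EV control. The order did not hold for each gene: Top2a was lowest of the controls in EV control 1, at 250.2 CPM against 292.8 and 295.9 CPM in EV control 2 and 3, but Mki67 was highest there, at 206.2 CPM against 194.3 and 194.0 CPM. The summed level of the 10 genes was 890.3, 807 and 569 CPM in p27OE 1, 2 and 3 and 1164, 1456 and 1440 CPM in EV control 1, 2 and 3. All 10 lay below 0, edgeR called 0 of them (10 at an unadjusted p under 0.05, 10 called lower by DESeq2). The part of proliferation in the levels of the splicing genes was not tested.

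Since the Y-linked level differed among libraries, the comparison was repeated between libraries of like level. p27OE 2, of intermediate level, entered neither pair. Between those of low level, p27OE 1 minus EV control 1, the median of the 54 genes was −0.18 and 48 lay below 0, as did 50.3% of all genes tested. Between those of high level, p27OE 3 minus the mean of EV control 2 and 3, it was −0.43 and 53 lay below 0, as did 47.8% of all genes. Below 0 in both pairs were 48 members and 35.1% of all genes. The 6 members above 0 in the low-level pair were Srsf12, Sf3b5, Hnrnph2, Snrpb, Snrpb2 and Sf3b6. In 51 of 54 members the high-level value was the lower of the pair. That share was not computed over all genes, so it is not read as particular to the splicing genes. Each pair held 1 p27OE library, and the low-level pair 1 control, so there is no test of that difference. The median of all tested genes was −0.002 in the low-level pair and 0.026 in the high-level pair. Cdkn1b differed by 1.925 in the low-level pair and 3.401 in the high-level pair, and the median of the proliferation markers by −0.331 and −1.431. Y-linked level, p27 level and proliferation therefore cannot be told apart here. For Hnrnpd the values were −0.47 in the low-level pair and −1.04 in the high-level pair, for Srsf1 −0.46 and −0.90, and for Srsf12 0.61 and 1.81.

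In a fit that also held the Y-linked level, edgeR called 38 members lower and 1 higher, Srsf12, beside 16.0% of all genes called lower and 18.0% called higher. The 7 genes called without the term were among the 38. By group these were 9 SR, 18 hnRNP, 7 Sm and U1/U2 snRNP, 3 SF3A/SF3B and 1 U2AF gene. The median over the 54 genes was −0.29 in this fit, as in the fit without the term. Without both libraries numbered 1, 31 members were called lower and 1 higher, beside 8.90% of all genes lower and 7.81% higher, and the median was −0.38.

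**Figure D4:**
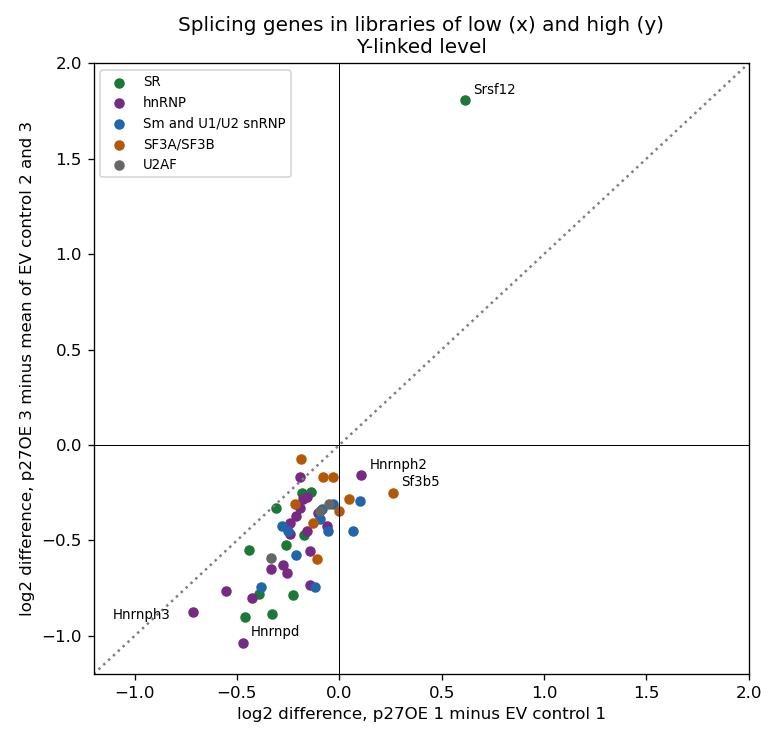
Each point is 1 of the 54 tested splicing genes, coloured by group; the x axis is the log2 difference between the libraries of low Y-linked level (p27OE 1 minus EV control 1), the y axis that between libraries of high level (p27OE 3 minus the mean of EV control 2 and 3), and the dotted line marks equal values. Of the points, 48 lie below 0 on both axes, and Srsf12 lies alone at 0.61 and 1.81.

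Other genes of the splicing pathway, in 9 lists, mostly lay below 0 as well: 102 of 125 tested genes did so, with a median of −0.20. edgeR called 1 of them lower and 0 higher, with 55 lower and 5 higher at an unadjusted p under 0.05. DESeq2 called 36 lower and 5 higher, beside 8.41% of all genes lower and 8.19% higher. The 1 called gene was Ptbp3, a pyrimidine tract binding protein, with 67.0, 71.3 and 68.6 CPM in p27OE and 101.6, 94.7 and 95.0 CPM in EV control. Ptbp3 fell by 0.49 ± 0.06 on the log2 scale (SE; edgeR adjusted p = 0.0303). Mbnl1, a regulator that acts in tissue differentiation, was among the 23 genes above 0, at 167, 148 and 153 CPM in p27OE and 119.5, 115 and 122 CPM in EV control, with no overlap and no call (0.40 ± 0.08, SE; edgeR adjusted p = 0.0509).

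The LSm ring, which holds the U6 RNA, had the lowest median, −0.43, with 7 of 7 genes below 0; Lsm5 stood at −0.75 ± 0.18 (SE) and Lsm4 at −0.38 ± 0.10. The SMN and methylosome genes, which load Sm rings onto RNA, had 11 of 12 below 0 and a median of −0.33, with Gemin2 at −0.71 ± 0.14 (SE) and Clns1a at −0.18 ± 0.06. In the list of SR-like proteins, SR kinases and their importer, 11 of 13 lay below 0 (median −0.23), with Tra2b, an SR-like splicing activator, at −0.56 ± 0.12 (SE) and the importer gene Tnpo3 at −0.27 ± 0.08. None of these 6 genes was called.

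The exon junction complex had 8 of 8 genes below 0 (median −0.21), with Magoh at −0.32 and Acin1 at −0.24. U1-associated genes had 8 of 8 below 0 (median −0.19), with Tial1 at −0.41 and Luc7l3 at −0.27. Of the tri-snRNP genes 12 of 15 lay below 0 (median −0.18), with the U5 protein genes Eftud2 and Snrnp40 at −0.40 and −0.33. The Prp19 complex and helicase list had 17 of 22 below 0 (median −0.11), with Ppil1 at −0.42 and Syf2 above 0 at 0.25. The other regulators of splicing had 21 of 30 below 0 (median −0.16). The minor spliceosome, which removes a rare class of introns, was closest to 0, with 7 of 10 below 0 and a median of −0.08. Its gene Zrsr1 stood at 0.50 ± 0.15 (SE) and Zrsr2 at −0.18 ± 0.07. Ptbp3 apart, none of the genes in these lists was called by edgeR.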

How the data were processed

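The authors deposited raw counts of reads for each gene symbol. Per the submitters' processing notes reads were handled with Bowtie2 2.2.6, TopHat2 2.0.14, Subread and featureCounts 1.4.6 on mm10; the annotation, strand setting and treatment of reads with several matches are not given in the sources used here. Overlapping genes may therefore share counts. Per the labels, libraries came from the TruSeq RNA v2 kit.

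All 24062 symbols entered 1 table; filterByExpr kept 13990 (99.976% of counts). Counts were scaled by TMM and tested with edgeR 4.0.16 in R 4.3.3 (glmQLFit robust, glmQLFTest, two-sided, group only), with Benjamini-Hochberg adjustment over 13990 genes and calls at an adjusted p under 0.05. SEs were derived from the edgeR test, as the absolute log2 fold change divided by the square root of its F statistic. Log2 CPM used a prior count of 2. CPM per kb used exon-union lengths from GENCODE M21 (GRCm38), which also gave coordinates and shared stretches of 50 bases in annotated transcripts on the same strand. The procedure was tried on simulated counts. Those held no difference in Y-linked level among libraries, unlike the data, so the trial does not bear on how such differences affect the calls. Alternatives used DESeq2 1.42.0, limma-voom 3.58.1, other scalings and filters, a replicate block, the Y-linked level and left-out libraries.

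The members, lists and alternatives were chosen with earlier results of these data known. Named genes are all called members and, per group, the 3 of smallest p, the extremes of fold change and the 2 highest per kb, plus the 2 of smallest p in each related list. Others were named after their values were seen. Counting precision followed from 39183624 to 61219345 counts per library.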

Additional observations from a re-analysis of the deposited data

How the results depend on the processing

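The direction held throughout: of the splicing genes tested, 52 or 53 lay below 0 under each of the 16 alternatives, and no named gene with a call reversed. The number called did not hold. The 7 splicing genes called became 3 with RLE scaling, 4 with upper-quartile scaling, 0 with total counts, 30 with DESeq2, 32 without both libraries numbered 1, 39 with a Y-linked term, and 0 to 30 when 1 library was left out; no filter, a stricter filter and limma-voom gave 6 to 8. All genes called were 365, against 2321 with DESeq2, 2334 without both libraries numbered 1, 4761 with the Y-linked term and 1 to 1827 with 1 library left out. The other scalings called 327 genes in all (RLE), 328 (upper-quartile) and 313 (total counts). No filter gave 317 genes in all, the stricter filter 497 and limma-voom 420. Related genes called were 1, against 5 with the stricter filter, 41 with DESeq2, 3 with limma-voom, 40 without both libraries numbered 1, 60 with the Y-linked term and 0 to 34 with 1 library left out. The cause was not tested.

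The replicate number as a block gave 25 splicing genes, 29 related genes and 2410 genes in all. The deviations of same-numbered libraries from their group means had r = 0.67, 0.04 and 0.50 across genes. The closest match of EV control 2 was p27OE 3 (0.56). Libraries alike in Y-linked level also matched, so these values cannot tell whether a number marks a shared origin.

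Without both libraries numbered 1 the median log2 fold change was −0.38 over the splicing genes, −0.44 for SR, −0.42 for hnRNP and −0.26 for SF3A/SF3B, and the summed difference was −0.41. With 1 library left out the medians ran from −0.37 to −0.27 over the splicing genes, −0.43 to −0.32 for SR, −0.41 to −0.30 for hnRNP, −0.41 to −0.23 for Sm and U1/U2 snRNP, −0.22 to −0.13 for SF3A/SF3B, −0.30 to −0.16 for U2AF and −0.22 to −0.17 for the related genes, and the summed difference from −0.39 to −0.29. Hnrnpd stayed between −0.90 and −0.62 and Snrpe between −0.68 and −0.50 over all alternatives, each with a call in 10 of 16. Srsf12 rests on 20 to 100 counts per library, which limits its precision.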
